A study of Homo sapiens with 6 samples.

Results

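Replacement histones are histone proteins made from polyadenylated mRNAs of solitary genes, and 8 such genes were followed here in HEK293 cells, an established human embryonic kidney cell line. They are H2AFZ and H2AFV (H2A.Z), H2AFX (H2A.X), H2AFY and H2AFY2 (macroH2A), H3F3A and H3F3B (H3.3), and H1FX (linker histone H1X), taken by name under the older symbols of the files. All 8 were among the 8121 genes with a translational efficiency, and 7 were among the 9570 transcripts with an occupancy value at each codon. H3F3A was not in the occupancy table used here. Per the sample labels the cells had received a control siRNA, and the samples used here are of that condition alone. Cells were treated with cycloheximide, which holds ribosomes on the mRNA, at 100 μg/ml for 3 min before lysis, and the lysis buffer contained it too. Each lysate gave ribosome-protected fragments (RPFs, the pieces of mRNA covered by ribosomes) and total RNA, with 3 replicates of each library type. Translational efficiency was taken as the ratio of RPFs to total RNA within a replicate, since its formula is not stated. Occupancy is the number of in-frame RPFs at a codon, scaled for library size and divided by the TPM of the mRNA (its abundance in total RNA, scaled for length and library size), with the replicates combined by the authors.

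Most histone protein is made during S phase from clustered genes whose mRNAs end in a stem-loop. Replacement histones are made throughout the cell cycle and enter chromatin away from replication forks. H2A.Z is placed at promoters by the SRCAP and TIP60/EP400 complexes, H2A.X is phosphorylated beside DNA breaks, macroH2A carries a large extra domain and is known from the inactive X chromosome, H3.3 is deposited by HIRA or by DAXX with ATRX, and H1X binds the linker DNA between nucleosomes. H2AFX is unusual in that its gene can give both a stem-loop and a polyadenylated mRNA.

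The 3 replicates of translational efficiency were close, with Pearson coefficients of 0.987 to 0.99 on the log2 scale over all genes. A gene varied between replicates by a median SD of 0.10 log2, whereas genes differed from each other by an SD of 1.56 log2. The labels number the replicates without saying whether they are separate cultures, so the p-values below measure the spread between these samples only. Of the markers of this line, VIM, KRT8, KRT18, NEFL and NEFM were in both tables. Their mRNAs stood at 21.9 (VIM), 18.9 (NEFL), 16.4 (NEFM) and 2.76 (KRT18) times the median level, but KRT8 was under it at 0.439. Of the markers of other cell types, PTPRC, ALB, HBG1 and CDH5 were in neither, and COL1A1 mRNA stood at 0.0430 of the median level.

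The sequence around the start codon is shown for each mRNA because it is where initiation takes place, and because the genes of a pair encode like proteins from different start regions. Capitals mark the start codon, and all 8 were read 5′ to 3′ from GRCh37 with GENCODE transcripts.
H2AFZ: gcggaattcgaaATGgct
H2AFV: ggcgccgagaacATGgct
H2AFX: tacctcgctagcATGtcg
H2AFY: agggccaccgccATGtcg
H2AFY2: aactgaagcaagATGtcg
H3F3A: ggtctctgtaccATGgct
H3F3B: tcgtgaaagaaaATGgcc
H1FX: cctcttgctaccATGtcc
They lie at chr4:100870895-100871339 on the minus strand (H2AFZ), chr7:44882951-44887582 minus (H2AFV), chr11:118966099-118966116 minus (H2AFX), chr5:134724778-134724795 minus (H2AFY), chr10:71835403-71835420 plus (H2AFY2), chr1:226252041-226252058 plus (H3F3A), chr17:73775250-73775729 minus (H3F3B) and chr3:129034740-129034757 minus (H1FX). An intron lies within the windows of H2AFZ, H2AFV and H3F3B. H3F3B has 3 start contexts among its transcripts, of which 1 is shown. A purine stands 3 nt before the start codon in the 8 windows shown, as in 86.0% of 9027 transcripts, and the base after the start codon is G in 4 of the 8 (H2AFZ, H2AFV, H3F3A, H3F3B), as in 53.2% of transcripts.

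Translational efficiency of the 8 genes ran from 39.2 for H3F3A to 0.279 for H2AFY, beside a median of 0.385 over all genes. In order it was highest for H3F3A, then H2AFZ, H1FX, H2AFV, H2AFX, H3F3B, H2AFY2 and H2AFY. For each of the 7 neighbouring steps in that order the replicates did not overlap. The order was set from these same replicates, and the share of such steps among other genes was not computed. Relative to the median of all genes, 7 of the 8 were higher and H2AFY was lower by limma, at a Benjamini-Hochberg adjusted p threshold of 0.05 over all 8121 genes. Replicates were so close that this test called 89.3% of all genes, 44.7% higher and 44.6% lower. A call beyond 2-fold of the median separates genes better: 4 of the 8 passed it as higher (H3F3A, H2AFZ, H1FX and H2AFV) and 0 as lower by limma's treat. The count of 0 also held at an unadjusted p under 0.05. That looser threshold could not change it, since H2AFY, the only member under the median, lay within the margin at −0.45 log2. The same call took 41.4% of all genes, 23.3% higher and 18.2% lower. The lysates average over all cells, so fewer cells using an mRNA and fewer ribosomes on it in each cell cannot be told apart.

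**Figure D1:**
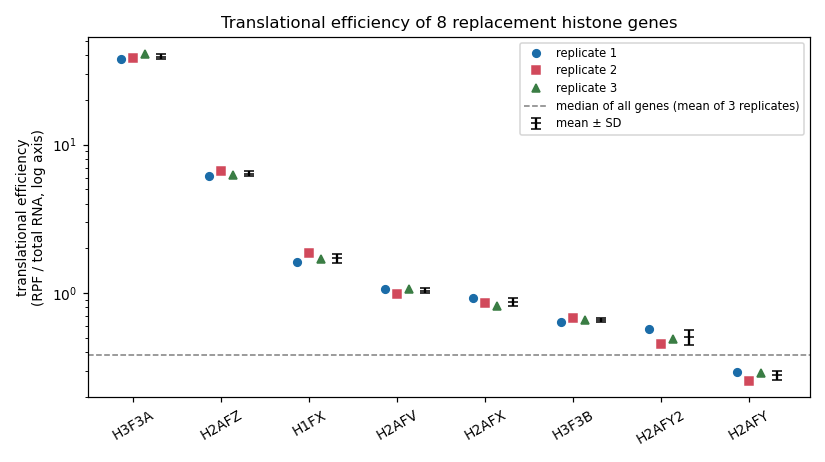
Translational efficiency (RPFs over total RNA, log axis) of each gene, with 1 symbol per replicate, the mean ± SD in black beside them (n = 3), and a dashed line at the median of all genes. Replicates of a gene sit close together, H3F3A stands highest at 39.2 and H2AFY at 0.279 is the lone gene under the line.

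The H2A.Z genes encode proteins of 128 residues that differ at 3 positions, yet their translational efficiencies lay far apart. H2AFZ (H2AZ1; chr4:100869243-100871512, minus strand) measured 6.18, 6.67 and 6.24 in replicates 1 to 3, a mean of 6.36 ± 0.264 (SD, n = 3). H2AFV (H2AZ2; chr7:44866390-44887686, minus strand) measured 1.06, 0.988 and 1.06, a mean of 1.04 ± 0.0424 (SD, n = 3). Every H2AFZ value was above every H2AFV value, and H2AFZ was higher in 3 of 3 replicates. H2AFZ exceeded H2AFV by 2.61 log2 (SE 0.073, 95% interval 2.43 to 2.78), a ratio of means of 6.14, with an adjusted p of 4.71e-08 by limma. Against the median of all genes, H2AFZ was higher by 4.02 log2 (SE 0.052) and H2AFV by 1.41 log2 (SE 0.052), with adjusted p-values beyond 2-fold of 2.15e-06 and 0.00106 by limma's treat.

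The test of the pair, used for all 3 pairs compared, sets the difference of the gene means against the spread of both genes. The fit within replicates gave the same difference. Both carry the error of the second gene into every gene tested, so neither adjusted p is free of it. The fit within replicates called 93.7% of 8120 genes against H2AFV, 86.6% against H2AFY2 and 91.7% against H3F3B. Shares for the test printed first are not given here. Within replicates, the adjusted p for H2AFZ minus H2AFV was 2.23e-07 by limma.

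The coding sequences (CDSs) of the pair differ at 76 nucleotides (80.4% identity), and the longest run they share is 23 nt, shorter than a footprint of 28 to 30 nt. The stretch from codon 32 to codon 41, where the genes differ most, shows this, with the 11 differing bases in capitals in both.
H2AFZ: cgTatTcaTCgacacCtAaaATctAgGacG
H2AFV: cgCatCcaCAgacacTtGaaGActCgCacC
These stretches lie at chr4:100870502-100870531 and chr7:44880570-44880599, both on the minus strand, in coding exons. Identity with other genes was larger: 55.0% of the 30-nt words of the H2AFZ CDS occur in 4 other genes, none of them coding, and 43.3% of those of H2AFV occur in 1 other gene, the non-coding H2AZ2P1. The part of these pseudogene copies in the ratios was not tested.

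Occupancy per codon gave the H2A.Z genes in the opposite order. Mean CDS occupancy was 0.109 for H2AFZ and 0.178 for H2AFV, 2.43 and 3.95 times the median transcript (0.0450), from about 50930 and 10877 recovered in-frame reads. Over the codons whose window occurs in no other gene, the means were 0.132 for H2AFZ and 0.205 for H2AFV, in the same order. Occupancy has no replicates, so this difference has no replicate check. H2AFZ mRNA was among the most abundant at 39.6 times the median level per length (above 99.0% of transcripts), and H2AFV stood at 5.22 times the median.

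Of 3 equal segments of the CDS, the last held the most occupancy in both H2A.Z genes, at 48.8% in H2AFZ and 45.8% in H2AFV. The median of the last segment over all transcripts was 31.6%. In H2AFV, codon 118 alone held 16.3% of the CDS occupancy. In H2AFZ, 22.3% lay in a single run of codons in that segment whose windows also occur in other genes. Whether density was raised across the whole segment was not tested. The highest codon of H2AFZ was codon 120 (GGG, glycine) at 1.21, or 11.1 times its CDS mean, and that of H2AFV was codon 118 (CTG, leucine) at 3.74, or 21.1 times its mean. Both windows are shown because these peaks fall within 3 codons of each other in the carboxy-terminal tail, with the codon in the ribosomal P-site in capitals.
H2AFZ codon 120: aaatctctgattGGGaagaaaggacaacag
H2AFV codon 118: atccacaaatctCTGattggaaagaaggga
They lie at chr4:100869631-100869660 and chr7:44874118-44874147 on the minus strand. The H2AFZ window also occurs in 1 other, non-coding gene, and the H2AFV window in none. Profiles of the pair had a Spearman coefficient of 0.54 over 128 codons, given as a description because codons share libraries and sequence. It was 0.63 over the 62 codons spelled the same way and 0.46 over the 66 spelled differently, and 3 of the 10 highest codons were common to both.

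**Figure D2:**
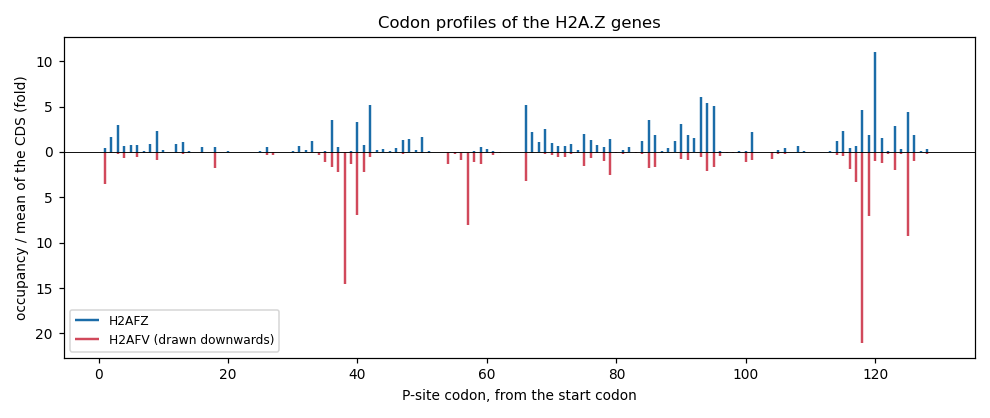
Occupancy of each P-site codon divided by the mean of its CDS (fold) for H2AFZ, drawn upwards, and H2AFV, drawn downwards, by codon from the start. Tall bars stand close to each other near codons 118 to 120 in both, while codon 38 of H2AFV reached 14.5 times its mean.

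H2AFX (H2AX; chr11:118964584-118966175, minus strand, single exon) had a moderate translational efficiency, and the highest mean occupancy of the 7 genes only with codons it shares with other genes. Over codons with a unique window it stood under H2AFV, H2AFZ and H3F3B. Its translational efficiency was 0.922, 0.858 and 0.820, a mean of 0.867 ± 0.0519 (SD, n = 3), higher than the median of all genes in 3 of 3 replicates. The difference from the median was 1.16 log2 (SE 0.057, adjusted p 2.08e-05 by limma), and it did not pass beyond 2-fold (adjusted p 0.0513 by limma's treat). Its mean CDS occupancy was 0.357, 7.93 times the median transcript and above 98.3% of transcripts, but its median codon was only 0.00544.

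Codons 86 to 94 held 76.2% of its occupancy, and they include acidic residues of the acidic patch, a docking surface of the nucleosome. The highest were codon 94 (CTC, leucine) at 11.8, codon 90 (AAC, asparagine) at 8.51 and codon 93 (GAG, glutamate) at 4.17. Codon 94 alone held 23.0% of the CDS occupancy, and the 5 highest codons held 61.8%, beside a median of 17.3% over all transcripts. The windows of the highest 2 codons are shown because the same letters stand in other H2A genes, with the P-site codon in capitals.
H2AFX codon 94: aacgacgaggagCTCaacaagctgctgggc
H2AFX codon 90: ctggccatccgcAACgacgaggagctcaac
They lie at chr11:118965808-118965837 and chr11:118965820-118965849 on the minus strand.

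The same windows held the peaks of other genes. The window of codon 94 occurs in 4 other coding genes and that of codon 90 in 8, all of them clustered H2A genes where they are in the table. About 21684 reads were recovered at codon 94 of H2AFX, and 21728 to 21998 at the same codon of the 3 clustered genes whose reads could be recovered (HIST1H2AL, HIST1H2AG and HIST3H2A). Codon 90 carried about 15595 reads in H2AFX and 15550 to 15773 in 5 clustered genes. These counts differed from those of H2AFX by at most 1.45%, while occupancies at the same codon differed between genes with their mRNA abundance. The codon was the highest or second-highest of its CDS in each of those genes at codons 94 and 90. Over all 23 H2AFX codons with a window found in another gene, mean occupancy was 1.81, and they held 80.8% of its occupancy. Over the other 121 codons it was 0.0817, which is 1.82 times the median transcript and above 76.7% of transcripts.

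The macroH2A genes had the lowest translational efficiencies of the 8. H2AFY (MACROH2A1; chr5:134670071-134735604, minus strand) measured 0.291, 0.255 and 0.290, a mean of 0.279 ± 0.0205 (SD, n = 3), and lay below the median by −0.45 log2 (SE 0.061, adjusted p 0.00122 by limma). H2AFY2 (MACROH2A2; chr10:71812300-71872038, plus strand) measured 0.573, 0.456 and 0.488, a mean of 0.506 ± 0.0606 (SD, n = 3), and lay above it by 0.38 log2 (SE 0.078, adjusted p 0.00598 by limma). All H2AFY values were under all H2AFY2 values, and H2AFY was lower in 3 of 3 replicates. Their difference was −0.83 log2 (SE 0.099, 95% interval −1.07 to −0.60, adjusted p 1.36e-04 by limma; 1.94e-09 within replicates).

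Mean CDS occupancies of the macroH2A genes were nearly equal, at 0.0395 for H2AFY and 0.0414 for H2AFY2, and these were the 2 members with a mean under the median transcript. By the median over codons both were above it (61.0 and 56.7 percentile). H2AFY mRNA was abundant (9.79 times the median level, about 13114 recovered reads), while H2AFY2 mRNA was at 1.85 times the median with about 2609 reads. Both proteins have 372 residues, of which 120 differ position by position, and no 30-nt word of either CDS occurs in another gene. The highest codon of H2AFY was codon 230 (GGA, glycine) at 0.695 and that of H2AFY2 was codon 165 (AGC, serine) at 0.542. These peaks were 17.6 and 13.1 times the CDS mean, and the 5 highest codons held 16.9% and 15.8% of the occupancy in these longer CDSs.

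The H3.3 genes encode the same 136 residues, and the gap between them was the widest of the 3 pairs. H3F3A (H3-3A; chr1:226249552-226259720, plus strand) measured 38.0, 38.4 and 41.1, a mean of 39.2 ± 1.65 (SD, n = 3), above 99.7% of all genes. H3F3B (H3-3B; chr17:73772515-73781974, minus strand) measured 0.636, 0.675 and 0.656, a mean of 0.656 ± 0.0197 (SD, n = 3). The difference was 5.88 log2 (SE 0.072, 95% interval 5.71 to 6.05), a ratio of means of 59.8, higher for H3F3A in 3 of 3 replicates (adjusted p 1.25e-08 by limma; 1.87e-07 within replicates). H3F3A passed the call beyond 2-fold of the median (6.64 log2, SE 0.052, adjusted p 1.03e-06 by limma's treat), and H3F3B at 0.76 log2 (SE 0.050) did not (adjusted p 1).

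Although the protein is the same, 79 of the codons differ between the H3.3 genes. The longest run their CDSs share is 14 nt, so no footprint of 28 to 30 nt within the CDS fits both without a mismatch. Codons 70 to 79 are shown as the stretch with the most differences, with the 10 differing bases in capitals.
H3F3A: CgTCtggtgCgAgaAatTgcTcaggaCttT
H3F3B: AgGTtggtgAgGgaGatCgcGcaggaTttC
They lie at chr1:226253436-226253465 on the plus strand and chr17:73774936-73774965 on the minus strand, in coding exons. Every 30-nt word of the H3F3A CDS also occurs in another gene, 22 of them in all and none coding, and H3P6 holds every one. For H3F3B the share was 44%, all in the coding gene H3F3C (H3-5). The part of these copies in the efficiency of H3F3A was not tested, and no codon values were at hand for it.

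H3F3B mRNA was abundant, at 13.2 times the median level, and its mean CDS occupancy was 0.126, or 2.80 times the median transcript, from about 20824 reads. Its highest codons were codon 108 (ACC, threonine) at 1.65 and codon 130 (CGG, arginine) at 1.43. The first of 3 equal segments of its CDS held 15.3% of the occupancy and the last 43.4%. Codons with a window in another gene had a mean of 0.160 and the other 73 codons a mean of 0.0963, which is 2.14 times the median transcript.

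The linker histone gene H1FX (H1-10; chr3:129033614-129035129, minus strand, single exon) stood between the H2A.Z genes. It measured 1.61, 1.85 and 1.68, a mean of 1.72 ± 0.125 (SD, n = 3), with every replicate under those of H2AFZ and above those of H2AFV. Against the median of all genes it was 2.13 log2 (SE 0.061) higher, with an adjusted p beyond 2-fold of 4.21e-05 by limma's treat. H1FX mRNA was at 5.80 times the median level, with a mean CDS occupancy of 0.0741 (1.65 times the median transcript) from about 8382 reads. Its CDS shares no 30-nt word with another gene.

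Lysine and arginine make up 25.4% of the sense codons of H1FX, the highest share of the 8 members. The highest codon of H1FX was codon 92 (TCG, serine) at 1.5, and codon 41 (AAG, lysine, followed by lysine) was second at 1.22. Unlike the H2A.Z genes, H1FX had 44.4% of its occupancy in the first segment and 14.7% in the last. Mean occupancy with a lysine or arginine codon in the A-site, the next codon to be read, was 1.07 times that of the other codons in H1FX, beside a median of 1.17 over 8924 transcripts. The same ratio was 0.365 in H2AFX, 0.487 in H3F3B, 0.613 in H2AFV and 1.54 in H2AFZ. With such a codon in the P-site it was 1.29 in H3F3B and 1.93 in H2AFV, above the median of 0.894, and 0.472 in H2AFX and 0.791 in H2AFZ, below it. These ratios include codons whose window occurs in another gene. Such codons held 80.8% of the occupancy of H2AFX, 59.3% of H3F3B, 41.2% of H2AFZ and 31.0% of H2AFV. Lysine codon 38 of H2AFV, its second highest at 2.58, is among them. Ratios over unique windows alone were not computed.

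**Figure D3:**
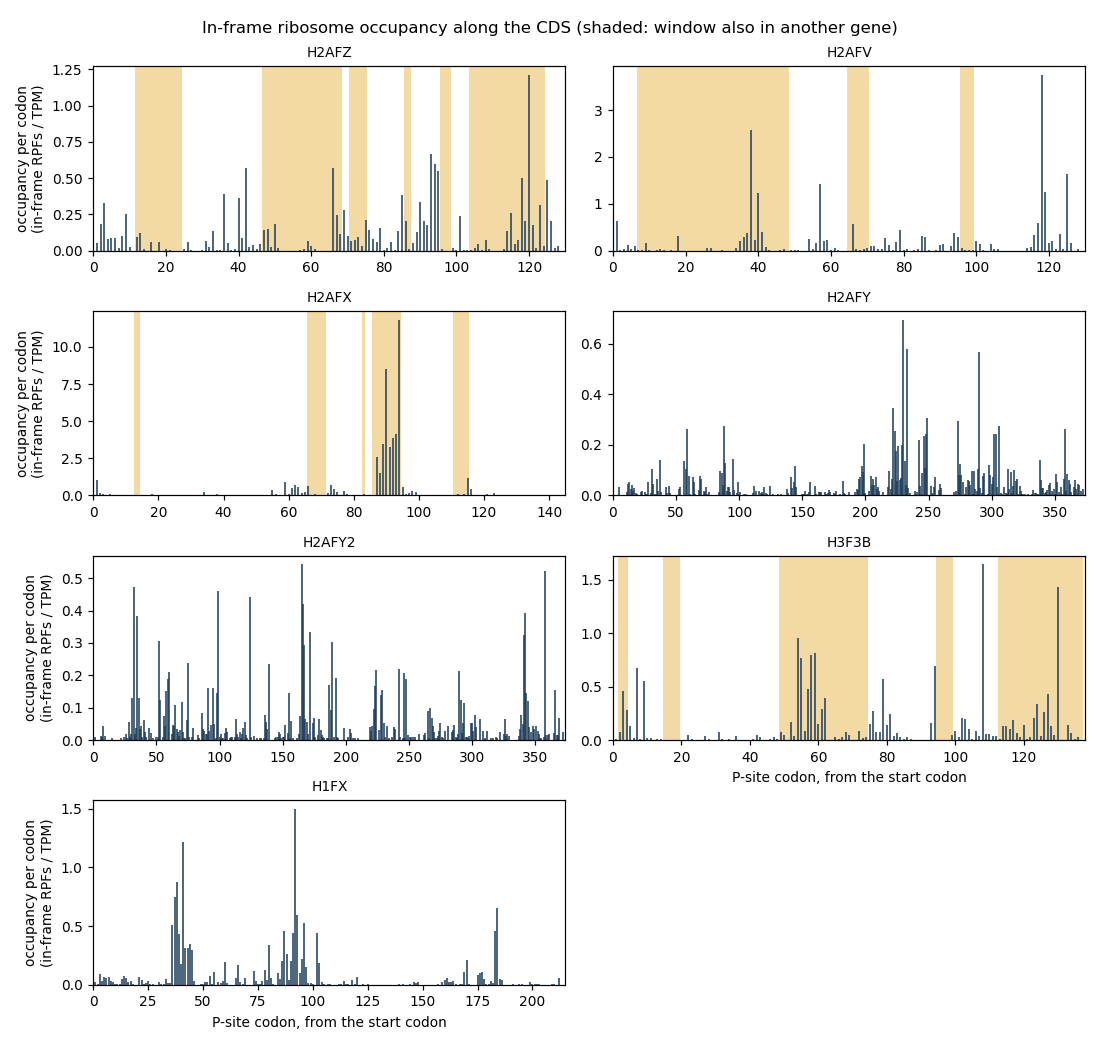
Occupancy of each P-site codon (in-frame RPFs over TPM, linear axis of its own for each gene) along the CDS of the 7 genes in the occupancy table, with shading at codons whose 30-nt window also occurs in another gene. The peak of H2AFX, 11.8 at codon 94, lies in shaded codons, while H2AFY, H2AFY2 and H1FX have no shading.

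Mean CDS occupancy was above the median transcript for 5 of the 7 genes. By the median over codons it was 6 of 7, with H2AFX at the 46.4 percentile and H2AFY and H2AFY2 at 61.0 and 56.7, so these 3 changed side. By the mean the order of the genes was not that of translational efficiency. The ratio of translational efficiency to occupancy was 7.54 times its median over 6912 genes for H2AFZ and 3.0 times for H1FX. For H2AFX it was 0.314 times the median, and this turned to 1.37 times with the mean over codons whose window occurs in no other gene. For H2AFZ it was 6.26 times with such codons. These values restrict occupancy alone. Translational efficiency and the median ratio keep all windows, so unlike sets of reads are compared. The measures differ in construction, since occupancy keeps in-frame reads of 1 transcript and pools the replicates, and the part of each step in these gaps was not tested.

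**Figure D4:**
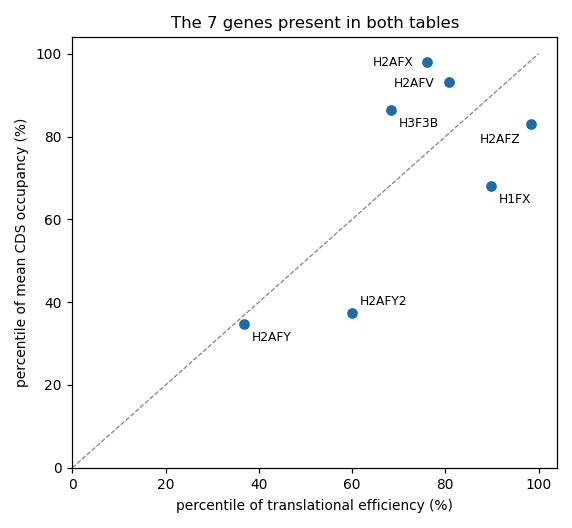
Percentile of mean CDS occupancy against percentile of translational efficiency among the 6912 genes in both tables, with the 7 members named and a dashed line where both are equal. H2AFX (76.2% and 98.1%) lies above the line, and H2AFZ (98.5% and 83.0%) and H1FX (89.8% and 68.0%) lie below it. Over unique windows the occupancy of H2AFX is at 72.3%, under the line, but its translational efficiency was not restricted to such windows.

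At the start codon, occupancy relative to the CDS mean was 3.52 in H2AFV and 2.99 in H2AFX, beside a mean of 2.52 and a median of 0.286 over transcripts. In the other 5 it was under 0.5, from 0.465 in H2AFZ to H2AFY, where no read was listed, which allows up to 0.0228% of its reads. Occupancy per codon of the 5′UTR, the part of the mRNA before the start codon, was 7.0% of that of the CDS in H2AFZ (1602 reads) and 0.122% in H2AFV (5 reads), beside a median of 2.86%. The remaining 5 lay between 1.92% and 5.59%. In H2AFZ the highest 5′UTR codon was 11 codons before the start with about 391 reads and in H2AFX 13 codons before it with about 161. The H2A.Z genes differed in the 5′UTR too, with reads at 28 of 58 in-frame codons of H2AFZ and 4 of 48 of H2AFV. After the stop codon at most 0.264% of the CDS level was found (H2AFY), and in H2AFY2 there was no read, which allows up to 0.112% of its reads. Intervals and limits of this kind cover counting error only.

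Genes that handle these histones were compared by list, with translational efficiency relative to the median of all genes, where 44.7% of all genes were called higher and 44.6% lower. Beyond 2-fold of the median the shares were 23.3% and 18.2%. Of 6 measured H3.3 deposition genes 1 was higher and 4 lower (1 and 1 beyond 2-fold), with a median of 0.216: ASF1A, a histone H3-H4 chaperone, stood at 3.32 ± 0.234 (SD, n = 3), and HIRA, the H3.3 chaperone, at 0.134 ± 0.00932. Of 20 genes of H2A.Z exchange 11 were higher and 7 lower (4 and 2 beyond 2-fold), near the shares of all genes, with a median of 0.492. ANP32E, which removes H2A.Z, was at 3.44 ± 0.14, and KAT5, the acetyltransferase of TIP60, at 0.146 ± 0.00990. Of 13 genes of H2A.X phosphorylation and readout 5 were higher and 7 lower (1 and 3 beyond 2-fold), also near those shares, with a median of 0.298. PRKDC, a kinase of H2A.X, was at 1.51 ± 0.203, ATM, another, at 0.164 ± 0.00811 and BRCA1 at 0.0732 ± 0.00413.

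Of 17 general histone chaperones 15 were higher and 2 lower (11 and 0 beyond 2-fold), beside 44.7% and 44.6% of all genes (23.3% and 18.2% beyond 2-fold), with a median of 1.17. ANP32B was at 25.7 ± 3.56 (SD, n = 3), nucleolin (NCL) at 7.71 ± 0.751 and nucleophosmin (NPM1) at 4.39 ± 0.170. Of 9 factors for stem-loop histone mRNAs 5 were higher and 2 lower (1 and 0 beyond 2-fold, beside the same shares), with a median of 0.476, and SLBP, which binds the stem-loop, was at 0.848 ± 0.0342. These lists were chosen with results of these data known and have no test of their own.

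Clustered histone genes had higher translational efficiencies than the replacement histones by their medians. Clustered mRNAs end in a stem-loop, and the methods do not say whether polyadenylated RNA was selected for the total RNA libraries. The part of such a selection in these ratios was not tested. Over 26 clustered genes the median was 5.93 and the range 0.374 to 735, and 25 were called higher than the median of all genes, beside 44.7% of all genes, while the 8 replacement histones had a median of 0.952. In replicates 1 to 3 the medians were 6.06, 6.15 and 5.73 for clustered genes and 0.991, 0.923 and 0.941 for replacement histones. Both medians were lower among genes with under 50% of their 30-nt words in another gene, at 3.45 for 11 clustered genes and 0.761 for the 6 replacement histones other than H3F3A and H2AFZ. HIST1H2BC, HIST1H2BD, HIST1H2BE, HIST1H2BF and HIST1H2BG had no matched sequence and so no share of words, and the 11 leave them out too. Mean CDS occupancy had a median of 0.137 over 22 clustered genes. Of 4 further variant histones measured, HIST3H2A and HIST1H1T are also among the clustered genes, at 375 ± 115 and 0.518 ± 0.0892. H3F3C was at 5.35 ± 0.544 (SD, n = 3) and the centromeric H3 variant CENPA at 0.254 ± 0.0181.

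**Figure D5:**
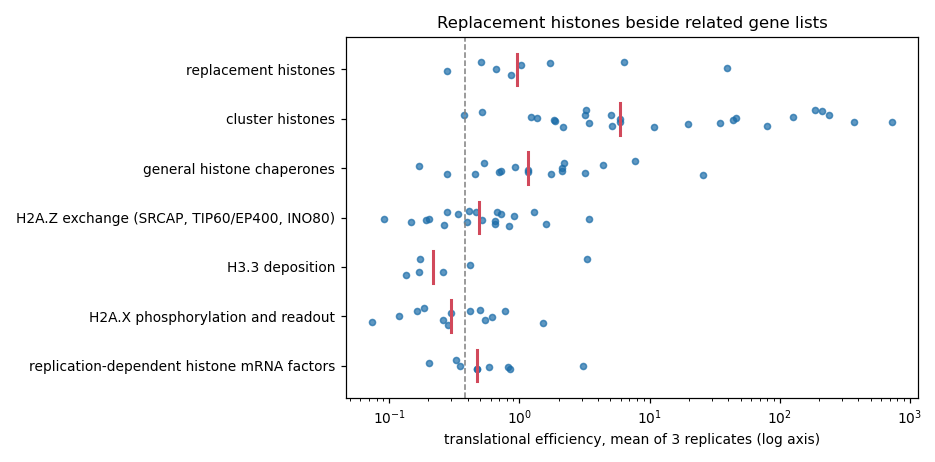
Translational efficiency (mean of 3 replicates, log axis) of every measured gene in each list, 1 point per gene with a red bar at the median of the list and a dashed line at the median of all genes, 0.385. The bar of the replacement histones is at 0.952, between those of the clustered histones (5.93) and of H3.3 deposition genes (0.216).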

How the data were processed

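The authors removed adapters and PCR duplicates, set aside rRNA and tRNA reads, aligned RPFs of 28 to 30 nt to the hg19 transcriptome with bowtie and applied an offset of 13 nt. The submitters' processing notes list cutadapt 1.16, Bowtie 1.1.2, TopHat2 2.1.1 and HTSeq 0.9.1, whereas the methods name Hisat2 for total RNA. The deposited translational efficiency was read as a linear ratio per replicate, whose formula no source used here states. The deposited occupancy is a list of values per codon, with replicates combined.

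Ratios were tested as log2(value + 0.01) with limma 3.58.1 in R 4.3.3, so fold changes are on that scale and understate low values. No low value was filtered. Pairs of genes were compared within replicates and also, without that pairing, by a t-test on limma's variances of both genes. The unpaired value is printed first. In both, the error of the second gene is shared among all tests. Smallest steps between occupancies gave the worth of 1 read, hence approximate reads and relative mRNA level per length, for 9509 of 9570 transcripts, and the steps were tested on simulated data. Total counts per library are not analysed here. Codon windows hold 30 nt, 12 of them before the codon, and were searched in GENCODE 44 transcripts lifted to GRCh37 (hg19), where 9076 transcripts matched by CDS length. One further gene of this group is not reported here. Named were all members, the 3 highest codons of each, and genes among the 3 highest and 3 lowest of each list. Members and lists were chosen with earlier results of these data known. Alternatives were other pseudocounts, a minimum of 0.02, each replicate left out, centring by replicate, other codon summaries and only genes with few shared words.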

Additional observations from a re-analysis of the deposited data

How the results depend on the processing

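Of 197 alternative values, 172 were counted as the same. Tested differences had to keep their direction and their side of the threshold, and occupancies and profile coefficients to stay within their interval. Counts of genes had only to stay within a set fold, a looser rule. Of the values that moved, 22 were mean CDS occupancies of single members, outside the interval of their read counts. Those of H2AFV and H2AFX moved under every other codon summary. Calls of the 8 members against the median of all genes were the same under each alternative. Beyond 2-fold of the median, 4 members were called in each but with a pseudocount of 0.001, where H2AFX also passed (adjusted p 0.0386 by limma). A pseudocount of 0.1 lowered the genes called beyond 2-fold from 3365 to 2499. Leaving out 1 replicate gave 7015 to 7091 called genes, and 3176 to 3233 beyond 2-fold. The ratios were taken to pair the RPF and total RNA libraries of a replicate already. Centring each replicate on its own median (a replicate block) gave 7265 called genes and 3375 beyond 2-fold. Without the replicate block the paralog differences were 2.61, −0.83 and 5.88 log2, and all 3 kept their call. Restricting to genes with under 50% shared words moved the median translational efficiency from 5.93 to 3.45 for clustered histones and from 0.952 to 0.761 for the replacement histones. This also left out the clustered genes without a matched sequence. The mean CDS occupancy of H2AFX moved from 0.357 to 0.0817 over codons with a unique window. The cause of these changes beyond fewer replicates, genes or codons was not tested. Occupancy has no replicates, so differences in it have no error of their own, and gene pairs with pseudogene copies depend on how reads that fit several transcripts were placed, which the sources used here do not give.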
